A study of Homo sapiens with 16 samples.

Results

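Actin filaments are built from actin subunits, coated by tropomyosins and pulled by myosin motors. The 10 genes described here encode parts of that machinery: the cytoplasmic actins ACTB and ACTG1, the smooth muscle actin ACTA2, the tropomyosins TPM1, TPM2 and TPM4, the actin-binding proteins TAGLN, TAGLN2 and CNN2 (2 transgelins and a calponin), and MYH9, the heavy chain of non-muscle myosin IIA. They were chosen by name, as actin filament genes under the control of SRF, from the 63677 gene identifiers counted. All 10 were found by symbol, and all 10 were among the 20280 genes that passed the low-count filter. SRF is a transcription factor that binds CArG boxes in promoters and enhancers. Its coactivators MRTFA and MRTFB are held in the cytoplasm by unpolymerised actin and enter the nucleus when actin assembles into filaments, so that actin genes lie downstream of the state of actin itself. CCG-222740 is a small molecule that blocks transcription driven by MRTF and SRF.

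UACC62P is a human melanoma line, and UACC62R is its derivative resistant to the BRAF inhibitor vemurafenib, obtained by selection in 2 uM vemurafenib over 2 months and kept in that drug. This is stated in the label texts of the 0 h libraries, and the texts of the treated libraries do not mention vemurafenib, so resistance and the presence of the drug cannot be told apart between the lines. Both lines were sequenced at 0 h, with the treatment given as none, and after 2, 6 and 24 h of exposure to CCG-222740 at 10 uM. This makes 8 groups of 2 libraries. The protocol of the treated libraries speaks of a vehicle control, but no vehicle library was analysed here, and the 0 h libraries carry another growth text. Time in culture, vehicle, any change of vemurafenib in UACC62R and the compound therefore cannot be told apart between 0 h and the later times. Any difference in preparation or sequencing between the 0 h and the treated libraries cannot be told apart from these either. The labels do not say whether the 2 libraries of a group came from separate cultures, so p-values measure the spread between these libraries, which may be technical.

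Between 25.9 and 33.3 M reads per library fell in genes. Levels are given as CPM, a gene's reads relative to the library's total, after TMM scaling. The library labelled UACC62P 2 h replicate 1 went against its label. It was placed on a scale of 67 genes that differ strongly between the lines at 6 h. The scale runs from 0 (UACC62P at 6 h) to 1 (UACC62R at 6 h). This library lay at 0.974, where the other UACC62P libraries lay between -0.008 and 0.008. All 10 actin genes were higher in it than in every other UACC62P library, at 321 CPM for TPM1 against 45.0 to 60.0 CPM in the others, and 9 of the 10 lay within the range of the UACC62R libraries (ACTA2, at 13.7 CPM, lay between the lines). It was left out of the tests, which used 15 libraries, and values with all 16 are given beside the results that they change. Of 8 melanoma markers, 7 exceeded 1 CPM in UACC62P (summed level 1497 to 1847 CPM) and 3 did in UACC62R (73.7 to 84.5 CPM). Fibroblast markers, which dedifferentiated melanoma also expresses, summed to 35.3 to 42.1 CPM in UACC62P and 358 to 667 CPM in UACC62R. COL1A1 was the largest of them in UACC62R, with a 0 h mean of 416 CPM against 3.99 CPM in UACC62P. The 0 h means of PDGFRA (2.81 against 3.85 CPM) and DCN (0.32 against 0.61 CPM) were lower in UACC62R, and those of the other fibroblast markers were higher. Of 7 smooth muscle markers, 1 exceeded 1 CPM in UACC62P and 2 did in UACC62R. SMTN was the largest of them, with 0 h means of 275 CPM in UACC62P and 364 CPM in UACC62R. Its 24 h mean was 262 CPM in both lines. MYOCD, the smooth muscle partner of SRF and 1 of the 7, had no read in the 15 libraries used. The part of these marker differences in the results below was not tested.

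Because SRF acts through CArG boxes (CC, then 6 letters that are each A or T, then GG, which reads the same way on both strands), promoter windows of the members were searched for them. RefSeq windows of GRCh38.p14, from 250 bases before to 50 bases after a gene start, were at hand for 8 members (14 windows), leaving ACTB and TAGLN without one. An exact box was present in 3 of the 14 windows, one each of ACTG1, TPM4 and CNN2. In ACTA2, 1 window held 2 sequences that differ from a box at 1 of the 6 inner letters. Over all 35116 windows of the same length, 1.29% held an exact box and 8.13% an exact or such a near box. These 4 are shown because they are the members in which the letters of a possible SRF site can be read directly. Each runs 5′ to 3′ along the gene's strand over the 250 bases before the start, with exact and near boxes in capitals.
ACTG1: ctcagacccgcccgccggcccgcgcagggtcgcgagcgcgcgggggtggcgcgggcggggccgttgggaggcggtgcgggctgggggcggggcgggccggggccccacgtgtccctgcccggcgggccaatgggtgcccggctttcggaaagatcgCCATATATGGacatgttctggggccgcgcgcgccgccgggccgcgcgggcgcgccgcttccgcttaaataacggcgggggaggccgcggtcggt
TPM4: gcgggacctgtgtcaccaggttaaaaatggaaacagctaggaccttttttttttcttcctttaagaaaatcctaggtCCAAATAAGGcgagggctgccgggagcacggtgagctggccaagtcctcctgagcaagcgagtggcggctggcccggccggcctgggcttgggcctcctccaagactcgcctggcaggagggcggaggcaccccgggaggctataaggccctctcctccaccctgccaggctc
CNN2: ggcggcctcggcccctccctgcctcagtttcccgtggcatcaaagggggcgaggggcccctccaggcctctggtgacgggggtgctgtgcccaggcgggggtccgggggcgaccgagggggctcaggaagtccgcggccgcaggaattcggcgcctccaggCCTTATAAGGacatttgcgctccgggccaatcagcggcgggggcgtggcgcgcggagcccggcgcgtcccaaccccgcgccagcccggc
ACTA2: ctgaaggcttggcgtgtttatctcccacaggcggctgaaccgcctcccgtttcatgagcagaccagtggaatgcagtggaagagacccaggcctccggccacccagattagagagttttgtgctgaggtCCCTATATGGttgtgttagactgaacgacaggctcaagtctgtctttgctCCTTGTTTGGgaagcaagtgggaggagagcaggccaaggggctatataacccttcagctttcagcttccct
The ACTG1 stretch is chr17:81512800-81513049 on the minus strand, with CCATATATGG starting at position -94 from the gene start. The TPM4 stretch is chr19:16067288-16067537 on the plus strand, with CCAAATAAGG at -173. In CNN2, chr19:1026358-1026607 on the plus strand, CCTTATAAGG starts at -89. The ACTA2 stretch, chr10:88952774-88953023 on the minus strand, holds CCCTATATGG at -121 and CCTTGTTTGG at -71. The windows of TPM1, TPM2, TAGLN2 and MYH9 held neither kind of match, which says only that these letters are absent from the windows searched.

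Divided by exon length, the 2 cytoplasmic actins led in every group. In UACC62R at 0 h, ACTB stood at 2015 ± 50.7 CPM per kilobase of exon (SD, n = 2) and ACTG1 at 1054 ± 83.0. They were followed by TAGLN2 at 404 ± 24.2, MYH9 at 222 ± 11.7, TPM4 at 76.7 ± 3.74, CNN2 at 54.1 ± 7.25 and TPM1 at 26.4 ± 3.23 CPM per kilobase. TPM2 (8.46 ± 0.19), ACTA2 (7.17 ± 0.28) and TAGLN (2.04 ± 0.64) came last on this scale, and no neighbours in this order overlapped. The order at 0 h in UACC62P was the same, from 1280 ± 68.8 CPM per kilobase for ACTB to 0.25 ± 0.09 for TAGLN, although TPM2 (3.66 ± 0.76) and ACTA2 (3.15 ± 0.38) overlapped there. So both lines made far more message for cytoplasmic than for smooth muscle actin. Exon lengths are unions over all annotated transcripts, and the 12876 bases of TPM1 lower its rank on this scale.

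The first question was how the resistant line differs from its parent before treatment. All 10 genes were higher in UACC62R at 0 h, and in none of them did the 2 lines overlap. Over all genes tested, 27.8% were higher in UACC62R and 26.1% lower, so that a difference between these lines is common. The median log2 fold change of the 10 was 1.46 (range 0.54 to 3.01), against 0.02 over all genes tested. The count was also 10 with all 16 libraries.

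The cytoplasmic actins, the main subunits of the filaments of non-muscle cells, differed least. ACTB stood at 4676 and 4333 CPM in UACC62P and at 7216 and 6964 CPM in UACC62R. It was 1.57-fold higher (log2 0.65 ± 0.07 SE, edgeR adjusted p = 1.56e-06). ACTG1 stood at 2258 and 2085 CPM against 3331 and 2980 CPM, 1.45-fold higher (log2 0.54 ± 0.10, adjusted p = 4.72e-04). ACTA2, the actin of contractile smooth muscle and of myofibroblasts, was low in both lines, at 10.2 and 8.57 CPM against 21.9 and 20.7 CPM. That is 2.27-fold higher in UACC62R (log2 1.19 ± 0.12, adjusted p = 7.17e-07).

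Among the tropomyosins, which lie along the filament and set which proteins can bind it, TPM1 stood apart. Its level was 60.0 and 59.6 CPM in UACC62P and 311 and 370 CPM in UACC62R, 5.70-fold higher (log2 2.51 ± 0.12, adjusted p = 3.18e-10). TPM4, the most abundant of the 3 per length, went from 397 and 408 CPM to 639 and 685 CPM, 1.64-fold (log2 0.72 ± 0.06, adjusted p = 2.69e-07). TPM2 read 10.1 and 13.6 CPM in the parent and 27.9 and 27.0 CPM in the derivative, 2.31-fold (log2 1.21 ± 0.19, adjusted p = 7.36e-05). All 3 tropomyosins were thus higher in UACC62R, TPM1 by the most.

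The actin-binding proteins were all several-fold higher in UACC62R. TAGLN2, a transgelin made in many cell types, was at 216 and 203 CPM in UACC62P and 1048 and 963 CPM in UACC62R, 4.81-fold higher (log2 2.27 ± 0.08, adjusted p = 2.19e-11). CNN2, a calponin that binds actin and myosin in non-muscle cells, was at 30.5 and 29.8 CPM against 216 and 178 CPM, 6.53-fold (log2 2.71 ± 0.13, adjusted p = 3.8e-10). TAGLN, the transgelin of smooth muscle, was the lowest member in reads, with 36 and 20 reads in UACC62P and 189 and 312 in UACC62R at 0 h. It was 8.08-fold higher with a wide error (log2 3.01 ± 0.38, adjusted p = 1.07e-05). The motor gene MYH9 stood at 674 and 542 CPM against 2074 and 1925 CPM, 3.29-fold higher (log2 1.72 ± 0.10, adjusted p = 4.21e-09).

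**Figure D1:**
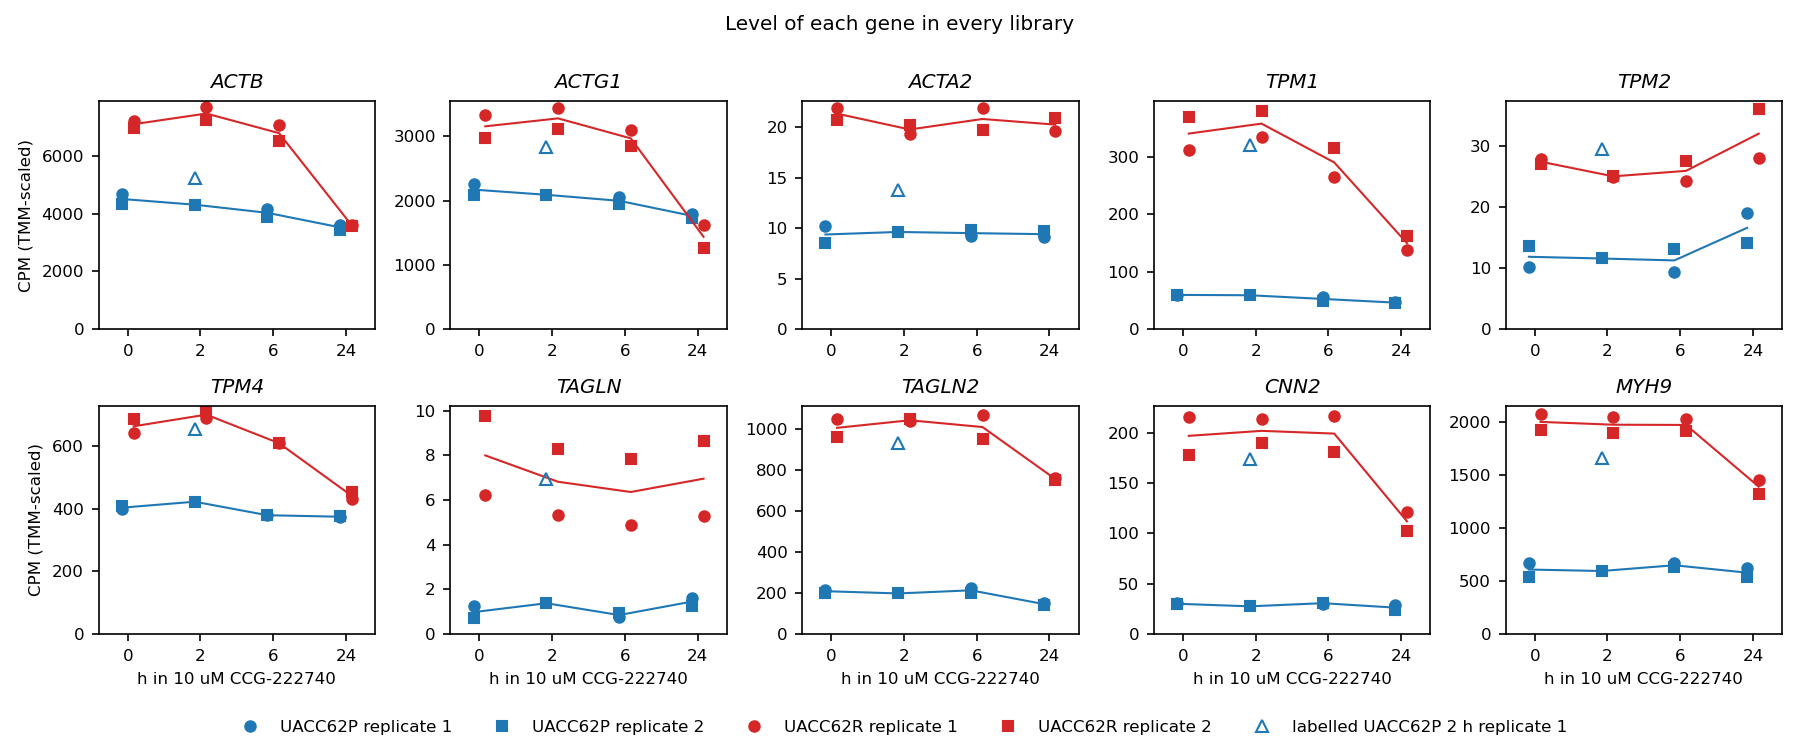
Level of each of the 10 genes in every library. The horizontal axis gives hours in 10 uM CCG-222740 (steps not to scale), the vertical axis TMM-scaled CPM on a linear scale from 0, blue UACC62P and red UACC62R, circles replicate 1 and squares replicate 2, lines the group means. The open triangle is the library labelled UACC62P 2 h replicate 1, which is in no mean: all its values lie above the other UACC62P libraries. ACTB falls from 7216 and 6964 CPM at 0 h to 3615 and 3569 CPM at 24 h in UACC62R.

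The second question was how CCG-222740 changes these genes over time within each line. At 2 h none of the 10 passed the test in either line. In UACC62P the log2 fold changes lay between -0.13 (CNN2) and 0.48 (TAGLN), where 0.0296% of all genes tested were higher and 0.0148% lower. With all 16 libraries the same comparison gave 0.02 to 1.99, still with 0 calls, since 1 of its 2 treated libraries is then the one that goes against its label. In UACC62R they lay between -0.23 (TAGLN) and 0.08 (TPM4), against 0.0493% of all genes higher and 0.0247% lower. The widest values at this time were those of TAGLN, the member with the fewest reads.

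At 6 h again none of the 10 passed. The log2 fold changes ran from -0.22 (TAGLN) to 0.09 (MYH9) in UACC62P, where 0.848% of all genes tested were higher and 0.671% lower, and from -0.33 (TAGLN) to 0.02 (CNN2) in UACC62R, where these shares were 0.380% and 0.286%. ACTB in UACC62P, at 4165 and 3888 CPM against 4676 and 4333 CPM at 0 h, was called lower with the replicate number as a block (log2 -0.16, adjusted p = 0.0244, and 0.305 without the block). With the block 3.64% of all genes were called higher there and 3.33% lower. In UACC62R, TPM1 stood at 266 and 315 CPM against 311 and 370 CPM, a log2 fold change of -0.23 ± 0.11 that did not pass (adjusted p = 0.563). None of the 10 passed the test of a different 6 h response between the lines (log2 differences -0.11 to 0.10), and over all genes tested 0% were called higher and 0.00493% lower in that contrast.

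**Figure D2:**
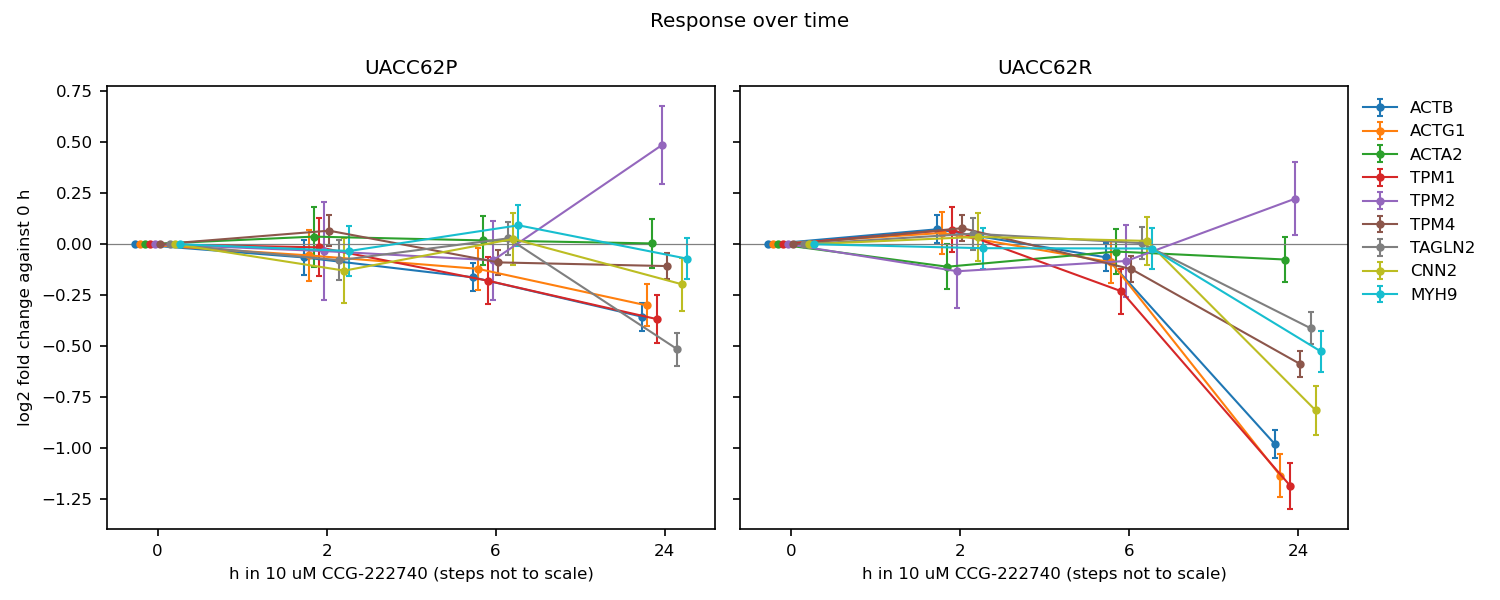
Log2 fold change against 0 h (vertical axis) after 2, 6 and 24 h in CCG-222740 (horizontal axis, steps not to scale) in UACC62P (left) and UACC62R (right) for 9 of the 10 genes, with TAGLN left out for its wide error. Points are fitted values and bars are 1 SE; the UACC62P 2 h points rest on 1 library. At 2 and 6 h the points stay near 0, and at 24 h in UACC62R 7 genes lie between -1.18 (TPM1) and -0.41 (TAGLN2).

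At 24 h, 7 of the 10 genes were lower in UACC62R than at 0 h, and none was higher. Over all genes tested, 6.48% were higher and 8.23% lower. The median log2 fold change of the 10 was -0.56, against 0.01 over all genes tested. In each of the 7 the 24 h libraries lay below both 0 h libraries. With all 16 libraries 2 of the 7 (ACTB and ACTG1) passed, where 0.884% of all genes tested were higher and 0.894% lower. The added library is in neither group of this comparison and enters it through the estimate of spread that all groups share. That estimate (edgeR common dispersion) was 0.0622 with it and 0.00985 without. The log2 fold change of TPM1 was -1.19 ± 0.49 with 16 libraries and -1.18 ± 0.11 with 15. Leaving out each library of the 2 groups in turn kept 7 calls.

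Both cytoplasmic actins fell by about the same proportion. ACTB went from 7216 and 6964 CPM to 3615 and 3569 CPM, 1.97-fold lower (log2 -0.98 ± 0.07, adjusted p = 2.16e-06). ACTG1 went from 3331 and 2980 CPM to 1616 and 1260 CPM, 2.19-fold lower (log2 -1.13 ± 0.10, adjusted p = 1.28e-05). ACTA2 was at 19.6 and 20.8 CPM against 21.9 and 20.7 CPM, groups that overlap, and did not pass (log2 -0.07 ± 0.11, adjusted p = 0.716). Of the 3 actins, the 2 of non-muscle cells were lower, and the smooth muscle actin gave no call.

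The tropomyosins split. TPM1 went from 311 and 370 CPM to 137 and 162 CPM, 2.27-fold lower (log2 -1.18 ± 0.11, adjusted p = 1.65e-05). TPM4 fell from 639 and 685 CPM to 429 and 452 CPM, 1.5-fold (log2 -0.59 ± 0.06, adjusted p = 4.4e-05). TPM2 read 28.0 and 36.1 CPM against 27.9 and 27.0 CPM and did not pass (log2 0.22 ± 0.18, adjusted p = 0.461). Of the 3 genes, TPM1 and TPM4 were thus lower, and the sign for TPM2 was the other way without a call.

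CNN2 went from 216 and 178 CPM to 122 and 102 CPM, 1.76-fold lower (log2 -0.81 ± 0.12, adjusted p = 5.12e-04). MYH9 went from 2074 and 1925 CPM to 1456 and 1322 CPM, 1.44-fold lower (log2 -0.53 ± 0.10, adjusted p = 0.00314). TAGLN2 went from 1048 and 963 CPM to 762 and 749.5 CPM, 1.33-fold lower (log2 -0.41 ± 0.08, adjusted p = 0.00318). TAGLN, at 5.29 and 8.62 CPM against 6.23 and 9.76 CPM, overlapped and did not pass (log2 -0.20 ± 0.31, adjusted p = 0.736). The 3 genes without a call, ACTA2, TPM2 and TAGLN, are the 3 lowest per length in this line.

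The same 7 genes were lower at 24 h than at 6 h in UACC62R, a comparison that uses no 0 h library and therefore only libraries with the same treatment text. Their log2 fold changes ran from -0.42 (TAGLN2) to -1.05 (ACTG1), where 5.18% of all genes tested were higher and 7.39% lower. ACTB stood at 7053 and 6510 CPM at 6 h and TPM1 at 266 and 315 CPM, so the fall of both lay between 6 and 24 h. ACTB and ACTG1 passed here with all 16 libraries as well. The 2 comparisons share the 24 h libraries.

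In UACC62P at 24 h, 2 of the 10 genes were lower than at 0 h and none was higher, where 2.19% of all genes tested were higher and 1.65% lower. ACTB went from 4676 and 4333 CPM to 3606 and 3439 CPM, 1.28-fold lower (log2 -0.35 ± 0.07, adjusted p = 0.0102). TAGLN2 went from 216 and 203 CPM to 150 and 143 CPM, 1.43-fold lower (log2 -0.51 ± 0.08, adjusted p = 0.00246). In both genes the 24 h libraries lay below the 0 h libraries. Neither passed with all 16 libraries (adjusted p = 0.411 and 0.946).

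ACTG1 was at 1791 and 1737 CPM against 2258 and 2085 CPM (log2 -0.30 ± 0.10, adjusted p = 0.129, and 0.0028 with the replicate block). TPM1 was at 47.7 and 45.0 CPM against 60.0 and 59.6 CPM (log2 -0.37 ± 0.12, adjusted p = 0.102, and 0.0162 with the replicate block). In both genes the groups do not overlap, and both were also called with no low-count filter (adjusted p = 3.28e-04 and 0.00272). Without that filter more genes were called overall. With the block, 6.04% of all genes tested were called in each direction. TPM2 read 19.1 and 14.2 CPM against 10.1 and 13.6 CPM (log2 0.49 ± 0.19, adjusted p = 0.188, and 0.0191 with no low-count filter). The log2 fold changes of the other 5 were 0.00 for ACTA2, -0.11 for TPM4, -0.20 for CNN2, -0.07 for MYH9 and 0.56 ± 0.44 for TAGLN, none of them called.

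Against 6 h, TAGLN2 was the 1 gene called lower at 24 h in UACC62P (log2 -0.54 ± 0.08, adjusted p = 0.0071), with 226 and 201 CPM at 6 h. Here 0.345% of all genes tested were higher and 0.390% lower. With the replicate block ACTB was also lower (log2 -0.19, adjusted p = 0.011) and TPM2 higher (log2 0.58, adjusted p = 0.0492), where 2.71% of all genes were lower and 2.34% higher. There was no call with all 16 libraries (adjusted p = 1 for TAGLN2).

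**Figure D3:**
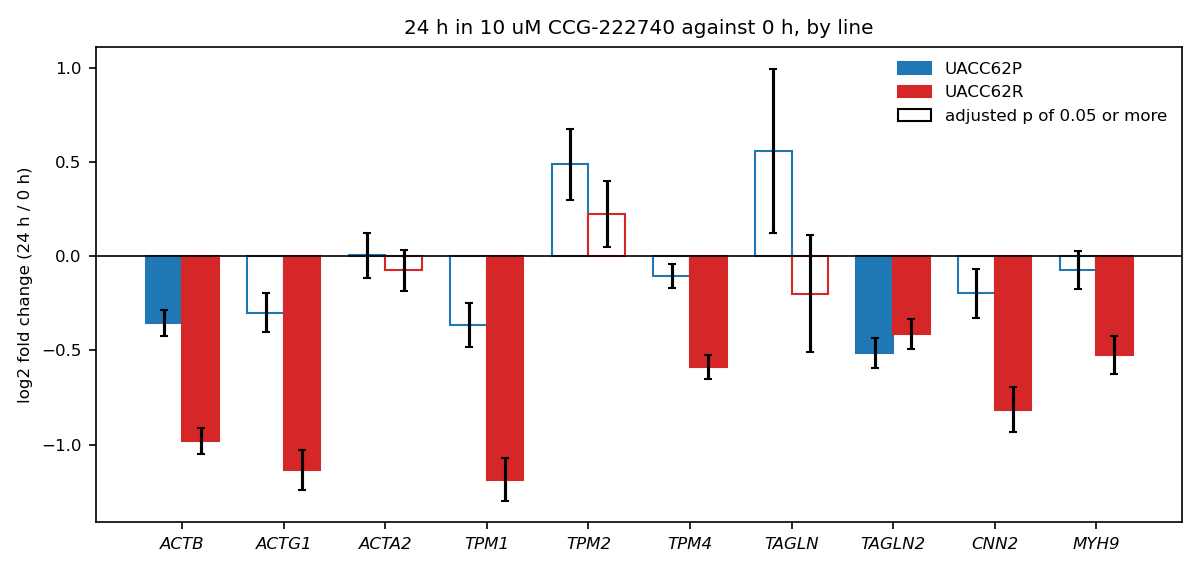
Log2 fold change of each gene at 24 h in 10 uM CCG-222740 against 0 h (vertical axis) in UACC62P (blue) and UACC62R (red). Bars are fitted values from 2 libraries per group, error bars 1 SE, and open bars did not pass an adjusted p of 0.05. For ACTB the bars reach -0.35 and -0.98, and for TAGLN2 -0.51 and -0.41.

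Whether the 24 h response itself differs between the lines was tested as an interaction. For 4 of the 10 genes the change was more negative in UACC62R, and for none more positive, where 0.242% of all genes tested differed upward and 0.321% downward. The difference was -0.63 ± 0.10 log2 for ACTB (adjusted p = 0.0151), -0.83 ± 0.15 for ACTG1 (adjusted p = 0.0212), -0.82 ± 0.16 for TPM1 (adjusted p = 0.0406) and -0.48 ± 0.09 for TPM4 (adjusted p = 0.0299). With the replicate block CNN2 (log2 -0.61, adjusted p = 0.00414) and MYH9 (log2 -0.46, adjusted p = 0.00287) were called too, where 2.29% of all genes were lower and 1.77% higher. Both were also called with no low-count filter (adjusted p = 0.00195 and 0.0022), a setting that called more genes overall. TAGLN2, lower in both lines, gave a difference of 0.10 ± 0.11 (adjusted p = 0.815). These 4 calls depended on single libraries: with all 16 libraries there was none, there was none without UACC62P 0 h replicate 2, UACC62R 0 h replicate 2 or UACC62P 24 h replicate 1, 1 without UACC62P 0 h replicate 1 or UACC62P 24 h replicate 2, and 2 without UACC62R 24 h replicate 1.

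After 24 h in the compound the lines still differed in most of the set. UACC62R was higher for 8 genes and lower for 1, where 28.1% of all genes tested were higher and 27.0% lower. TAGLN2 stood at 150 and 143 CPM against 762 and 749.5 CPM, 5.16-fold higher in UACC62R (log2 2.37 ± 0.08, adjusted p = 1.57e-11). TPM1 was 3.23-fold higher (log2 1.69 ± 0.12), CNN2 4.26-fold (2.09 ± 0.13), MYH9 2.40-fold (1.26 ± 0.10) and ACTA2 2.15-fold (1.11 ± 0.11). TPM2 was 1.93-fold higher (0.95 ± 0.18) and TAGLN 4.78-fold (2.26 ± 0.36). For these genes the 24 h libraries did not overlap between the lines.

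The cytoplasmic actins, higher in UACC62R at 0 h, were not called higher there at 24 h. ACTB stood at 3606 and 3439 CPM in UACC62P and at 3615 and 3569 CPM in UACC62R (log2 0.03 ± 0.07, adjusted p = 0.75). ACTG1, at 1791 and 1737 CPM against 1616 and 1260 CPM, was 1.23-fold lower in UACC62R (log2 -0.29 ± 0.10, adjusted p = 0.0252). This call was lost with all 16 libraries (adjusted p = 0.128), with library size scaling (0.0663) and with DESeq2 (0.0593). TPM4 stood at 373 and 375 CPM against 429 and 452 CPM, 1.18-fold higher in UACC62R (log2 0.24 ± 0.06, adjusted p = 0.0055, and 0.189 with all 16 libraries). With all 16 libraries 7 genes were higher and none lower.

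**Figure D4:**
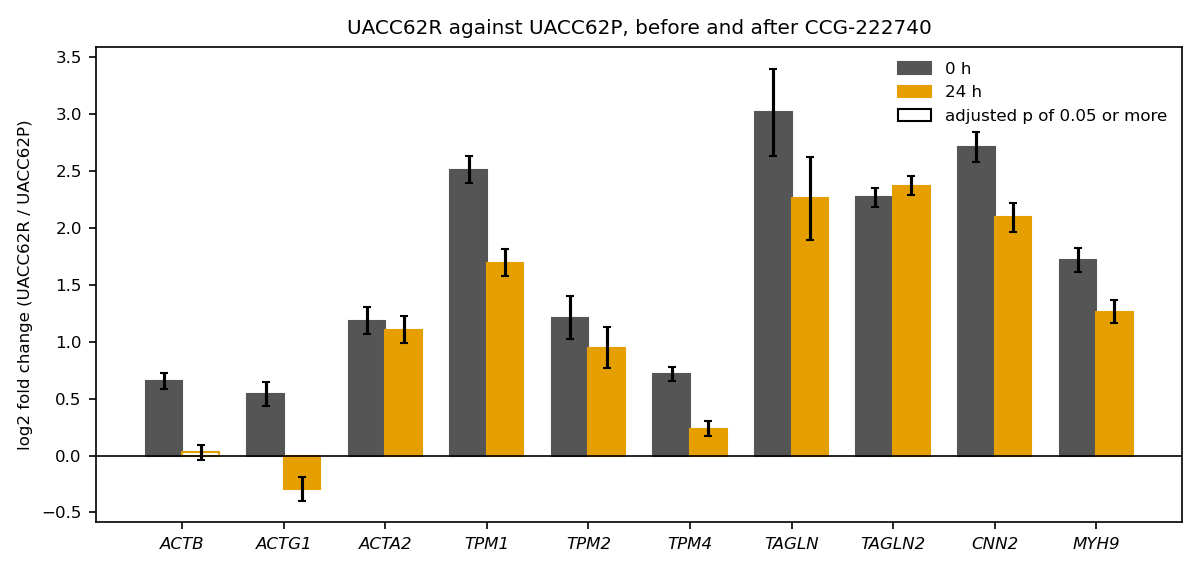
Log2 fold change of UACC62R against UACC62P (vertical axis) for each gene at 0 h (grey) and after 24 h in 10 uM CCG-222740 (orange). Bars are fitted values from 2 libraries per group, error bars 1 SE, and an open bar did not pass an adjusted p of 0.05. The ACTB bar goes from 0.65 to 0.03 and the ACTG1 bar from 0.54 to -0.29, while TAGLN2 reads 2.27 and 2.37.

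Across the 15 libraries, after subtracting each line's mean log2 CPM, the 7 genes that fell in UACC62R at 24 h varied together, each pair with a Pearson r of at least 0.665, and ACTA2, TPM2 and TAGLN did not follow them. ACTB and ACTG1 had an r of 0.982, TPM1 and TPM4 0.976, ACTB and TPM1 0.948, and CNN2 and MYH9 0.935. ACTA2 reached at most 0.257 with any other member (MYH9), and TPM2 had an r of -0.793 with TAGLN2. These points share libraries and the 24 h groups, and are given as a description. Among 8430 other genes the patterns most like ACTB were those of PRPS2 (0.982), NF2 (0.974) and WDR1 (0.973), and those most like ACTG1 were CAVIN1 (0.973), MARCKSL1 (0.972) and WDR1 (0.968). TPM1 was most like POGLUT3 (0.977), TCOF1 and CHAF1A (both 0.972), and TPM4 most like LIMA1 (0.964), IL1RAP (0.963) and MCM3 (0.96). TAGLN2 came closest to POLR2E (0.958), CFL1 (0.954) and MAP3K6 (0.952), CNN2 to ACTN1 (0.959), NOPCHAP1 (0.958) and PAQR4 (0.955), and MYH9 to SEPTIN11 (0.953), PAQR4 (0.95) and PDLIM1 (0.943). TPM2 and TAGLN each had 1 gene above 0.9, MT-CO1 (0.926) and CASP8 (0.909), and ACTA2 had none.

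The wider pathway is described with SRF and its coactivators and with 74 genes in 4 lists. SRF itself was at 79.2 to 86.3 CPM in UACC62R at 0 h and 55.8 to 63.2 CPM at 24 h, a fall of the factor's own message (log2 -0.48 ± 0.09, adjusted p = 0.00255). Its coactivator gene MRTFA went from 78.0 to 88.2 CPM down to 65.0 to 69.3 CPM (log2 -0.31 ± 0.09, adjusted p = 0.0368), and MRTFB did not pass (log2 -0.01, adjusted p = 0.983). In UACC62P the 24 h values were -0.04 for SRF, -0.07 for MRTFA and 0.10 for MRTFB, none called. At 0 h MRTFA (log2 0.97) and MRTFB (0.81) were higher in UACC62R, and SRF did not pass (0.21, adjusted p = 0.0587).

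The counts of listed genes in UACC62R at 24 h against 0 h stand beside 8.23% lower and 6.48% higher over all genes tested. In this comparison 2 of 8 tested relatives of the members in the same families were lower and none higher (median log2 -0.38, against 0.01 over all genes tested), the tropomyosin TPM3 (-0.36) and the calponin CNN3 (-0.74). That median rests partly on genes near the floor, such as ACTA1 and ACTG2, with 0 h means of 0.47 and 0.30 CPM. The mean of MYH10 went from 120 to 105 CPM and that of MYH14 from 45.3 to 50.4 CPM, neither of them called. Of 13 myosin light chains and their regulators, 4 were lower: the light chains MYL12A (-0.32) and MYL12B (-0.23), the light chain kinase MYLK (-0.67) and the kinase ROCK2 (-0.29). These 4 genes were lower alongside MYH9. The other tested genes of this list, the light chain MYL6 and the kinase ROCK1 among them, gave no call.

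Among 29 actin turnover genes, 7 were lower and none higher, among them the severing factor CFL1 (-0.37), its cofactor WDR1 (-0.49), profilin PFN1 (-0.38) and the Arp2/3 subunit ARPC5 (-0.34). Of 20 crosslinking and stabilising genes, 6 were lower and 1 higher. Lower were the crosslinker ACTN1 (-0.30), the pointed-end capper TMOD3 (-0.31) and the PDZ-LIM proteins PDLIM1 (-0.52) and PDLIM7 (-0.47). The median of this list was -0.20, and that of the turnover list -0.09. In UACC62P at 24 h, where 1.65% of all genes tested were lower, 1 gene each of the same-family list (CNN3, -0.24), the light chain list (MYLK, -0.65) and the turnover list (CFL1, -0.28) was lower, and none of the crosslinking list. Of the listed genes, CNN3 (difference -0.50 ± 0.09, adjusted p = 0.0212) and PDLIM7 (-0.70 ± 0.14, adjusted p = 0.0427) passed the test of a different 24 h response between the lines. With all 16 libraries CNN3 and WDR1 were the only listed genes called in UACC62R at 24 h against 0 h, and none was called in UACC62P or for the different response.

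With the replicate block more listed genes were called at 24 h, and more genes overall. In UACC62P, where 6.04% of all genes were then called in each direction, the lists held 1 higher and 1 lower (same-family), 1 and 2 (light chains), 1 and 5 (turnover) and 5 and 1 (crosslinking). In UACC62R, 11.0% of all genes were then higher and 13.2% lower. The same-family list (8 tested) held 0 higher and 3 lower, and the light chain list (13 tested) 0 and 6. The turnover list (29 tested) held 3 and 8, and the crosslinking list (20 tested) 1 and 9. For the different response, 2.29% of all genes were lower in UACC62R relative to UACC62P and 1.77% higher. There 7 of 20 crosslinking genes were lower and none higher, and 2 of 29 turnover genes were higher and none lower. The same-family and light chain lists each held 1 lower and none higher.

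At 0 h the same lists were mixed between the lines, where 27.8% of all genes tested were higher in UACC62R and 26.1% lower. Several of the counts lie near those shares. Crosslinking genes were higher in UACC62R for 13 of 20 and lower for 3, with the filamin FLNA (log2 1.35) among the higher. The turnover list had 12 of 29 higher and 7 lower, with TMSB4X, the actin-sequestering thymosin, higher by 8.25 on the log2 scale. TMSB4X was near absent in UACC62P at 0 h (19 reads in all, 0.18 and 0.48 CPM), against 82.1 and 124 CPM in UACC62R. The size of its fold change is therefore uncertain. In the same-family list 3 of 8 were higher and 2 lower, and the 2 lower were MYH10 (-1.95) and MYH14 (-1.25), the heavy chains of the other non-muscle myosins, where MYH9 was higher. The light chain list had 6 of 13 higher and 2 lower, with MYL12A (1.23) and MYLK (1.42) higher.

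**Figure D5:**
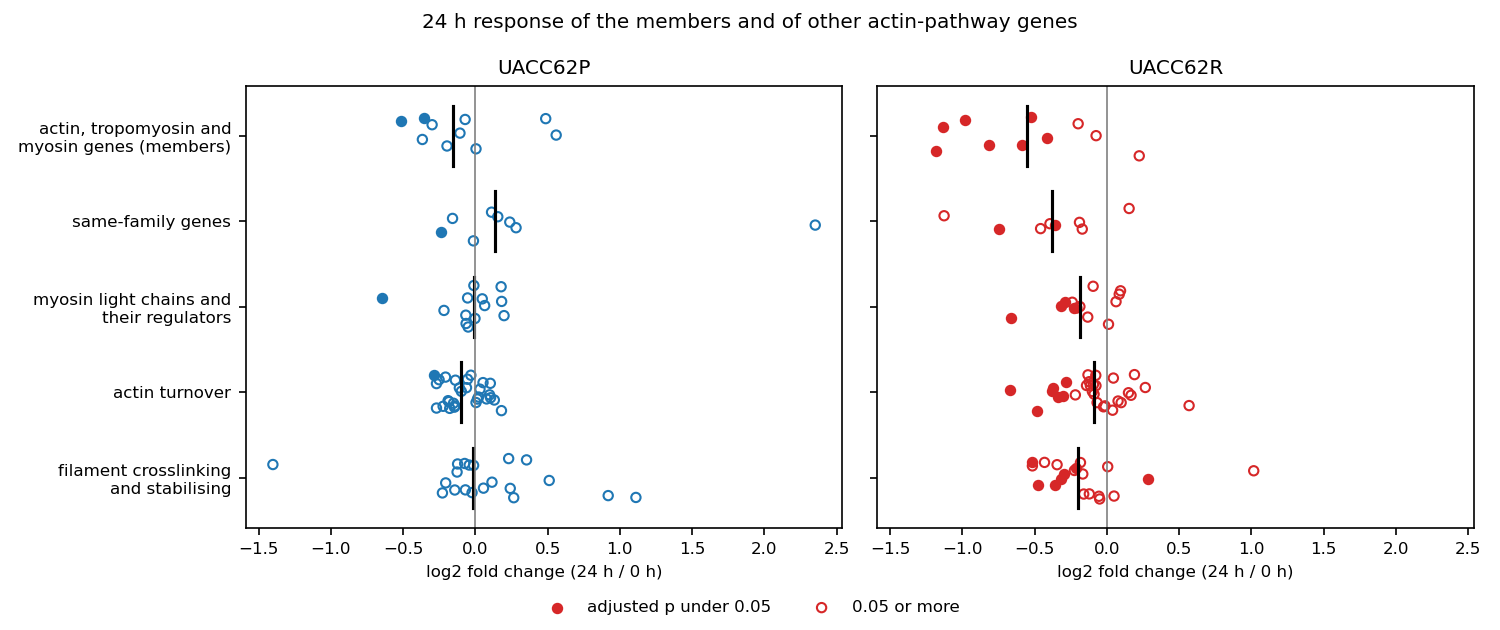
Log2 fold change at 24 h in CCG-222740 against 0 h (horizontal axis) for the 10 genes (top row) and for the tested genes of the 4 lists (other rows, vertical scatter has no meaning), in UACC62P (left) and UACC62R (right). Each point is 1 gene, filled where the adjusted p is under 0.05, and black bars are the medians of the rows. In UACC62R the 10 genes have a median of -0.56 and the 20 crosslinking genes one of -0.20.

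Several of these values carry limits of counting. Reads that aligned to more than 1 place made up 18.6 to 22.0% of each library, and ACTB and ACTG1 have near-identical relatives and pseudogenes, so that their counts are uncertain. Exons of ACTA2, TPM1, TPM4, TAGLN and CNN2 overlap genes on the other strand, and whether strand was used in counting is not stated in the sources used here. Since RNA was taken from whole cultures, fewer cells that express a gene and less of its RNA per cell cannot be told apart.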

How the data were processed

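The data were RNA-seq libraries of 2 melanoma lines at 4 times, 2 per group. The authors deposited 1 table of raw read counts per library, for 63677 Ensembl gene identifiers and 5 summary lines, which were left out of library sizes and tests. Reads were handled with HTSeq 0.6.1, HISAT2 2.1.0, Trimmomatic 0.33, FastQC 0.11.5 and bcl2fastq 2.19.0 on hg19, per the submitters' processing notes, which give no roles. Per the labels' protocols the libraries were stranded poly(A) libraries. Counts were tested here with edgeR 4.0.16 in R 4.3.3: TMM scaling, filterByExpr, 1 coefficient per group and quasi-likelihood tests (glmQLFTest) over all 20280 genes, with calls where the Benjamini-Hochberg p was under 0.05, with 7 residual degrees of freedom. The group of UACC62P at 2 h then held 1 library, assumed to vary like the others. Alternatives were all 16 libraries (19352 genes), the replicate number as a block, library size scaling, no low-count filter, DESeq2 1.42.0 and leaving out each library. Libraries with the same replicate number deviated together in 21 of 21 pairs of groups (Pearson r 0.179 to 0.718), which was read as pairing; the labels do not state it. Exon lengths and overlaps came from GENCODE v29 and gene symbols matched 52181 identifiers. The 10 members and the 4 lists were chosen with earlier results of these data known. From each list, up to 4 called genes with the smallest p were named, or the gene with the smallest p. Some listed items are not reported here. The scripts were tested on simulated counts.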

Additional observations from a re-analysis of the deposited data

Results flagged for a closer look

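The 24 h response differed between the lines by the interaction test for ACTB (log2 -0.63), ACTG1 (-0.83), TPM1 (-0.82) and TPM4 (-0.48), and among the listed genes for CNN3 (-0.50) and PDLIM7 (-0.70), each more negative in UACC62R. In the library labelled UACC62P 2 h replicate 1, which was left out of the main comparisons, all 10 genes were above every other UACC62P library, and 6 of the 10 were below all 4 UACC62R libraries of 0 and 2 h.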

How the results depend on the processing

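With all 16 libraries the number of the 10 genes called went from 2 to 0 in UACC62P at 24 h against 0 h, from 1 to 0 against 6 h, from 7 to 2 in UACC62R at 24 h against both 0 h and 6 h, and from 4 to 0 for the different 24 h response. The median of the 10 in UACC62P at 2 h moved from -0.03 to 0.76. With the replicate block the counts in UACC62P rose to 1 at 6 h, 4 at 24 h against 0 h and 3 at 24 h against 6 h, and with no low-count filter the last 2 were 5 and 2. Apart from these, CNN2, MYH9 and the genes named beside their results, the block changed no other call among the 10. Leaving out each library in turn gave 1 to 2 calls in UACC62P at 24 h against 0 h, 0 to 1 against 6 h, and 0 to 4 for the different 24 h response. UACC62P 2 h replicate 2 could not be left out. Of 176 values of called genes with a library left out, 176 kept their direction and 146 stayed called. The reversed values were all uncalled. In UACC62P at 24 h against 0 h, ACTA2 read -0.0015 with no low-count filter and -0.0029 with DESeq2. With libraries left out in turn it ranged from -0.11 to 0.13, and MYH9 from -0.22 to 0.094. In UACC62R at 24 h against 0 h TAGLN ranged from -0.59 to 0.16, the line difference of ACTB at 24 h from -0.0058 to 0.0499, and the different 24 h response of ACTA2 from -0.21 to 0.038. The cause of these changes was not tested. Counts over all genes moved by more than 1.5 times in every comparison other than the 2 between lines. In the order 15 libraries, 16 libraries, replicate block, no filter and DESeq2, UACC62P at 2 h gave 9, 0, 30, 117 and 14, its 6 h comparison 308, 10, 1415, 889 and 538, and its 24 h libraries against 6 h 149, 0, 1025, 722 and 330. For UACC62R the 2 h counts were 15, 0, 74, 123 and 37, with 135, 5, 566, 451 and 251 after 6 h. The different response gave 1, 0, 43, 98 and 20 for 6 h, then 114, 0, 822, 574 and 298 for 24 h. In the order 15 libraries, 16 libraries and block, UACC62R gave 2984, 344 and 4898 at 24 h against 0 h and 2550, 158 and 4491 against 6 h, and UACC62P at 24 h against 0 h gave 780, 29 and 2448 (1518 with no filter). With 1 library left out the counts over all genes ranged from 59 to 205 (6 h), 225 to 377 (24 h) and 3 to 42 (24 h against 6 h) in UACC62P. In UACC62R they were 56 to 71, 1251 to 2811 and 964 to 2285, and for the different 24 h response 11 to 137. The 2 h counts were 3 to 4 in UACC62P and 5 to 16 in UACC62R, and the 6 h difference gave 1 to 3. Depth limits TAGLN, which had 20 to 48 reads in the UACC62P libraries used.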
